A study of Rattus norvegicus with 196 samples.

Results

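The dorsal dentate gyrus (dorDG) was examined for its transcriptional response to fluoxetine, from the 8 libraries of this region among 196 in the series. The libraries were selected by their labels: brain region dorDG, with treatment Sham or Fluoxetine (FT). Each group held 4 libraries, from replicates 1, 3, 4 and 5, and an FT library was compared with the Sham library of the same replicate number. The animals were male Long-Evans rats aged 2 months at the start. The FT group received fluoxetine at 18 mg/kg body weight in the drinking water for 6 weeks, while the Sham group drank water for the same 6 weeks. Neither group carried a transgene, and the animals were naive rats, not a model of stress. Each library came from frozen micro-punches of the region pooled over several brains, so that differences between single rats cannot be seen. The spread between libraries holds that between pools of animals together with that of their processing. In such bulk tissue, fewer cells of a type and less RNA per cell cannot be told apart.

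The dentate gyrus is the entry station of the hippocampus. Its granule neurons receive input from the entorhinal cortex, send zinc-rich mossy fibres to CA3, and are among the few neurons still born in adult mammals. Fluoxetine is a selective serotonin reuptake inhibitor, which raises extracellular serotonin by blocking the serotonin transporter. Granule neurons express the inhibitory serotonin receptor Htr1a, and the dorsal part of the hippocampus is known for spatial memory whereas the ventral part is tied to mood and anxiety.

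The dissection was checked against marker genes in the Sham libraries of all 25 regions, as CPM, the reads of a gene scaled to a common library total. Slc30a3, the zinc transporter of mossy fibre vesicles, had a median of 169 CPM in dorDG, the highest of the 25 regions, against a median of 17.6 CPM over the other regions. Rfx3, a transcription factor marking granule neurons, was also highest in dorDG at 48.2 CPM, followed by the ventral dentate gyrus (venDG) at 31.2 CPM. C1ql3, a secreted synaptic organiser, ranked 2 of 25 and Neurod1, a factor of newborn granule neurons, ranked 3 of 25. Synpr, a mossy fibre vesicle protein, ranked 9. In contrast, Slc17a6, the vesicular glutamate transporter of thalamus, was lower in dorDG than in any other region, at 12.1 CPM. Ttr, the transthyretin gene that marks choroid plexus, had 122 CPM in dorDG and 2328 CPM in venDG. Thus, 4 of the 5 granule neuron markers that could be read were among the 3 highest regions. Only 5 of the 13 granule neuron markers listed had a gene name in the tables used here, and Prox1 and Calb1 were among those without one.

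The 8 libraries held between 5664111 and 37950261 reads counted on transcripts. In pair 3 the counts were concentrated in few transcripts: the 50 most abundant took 69.0% of counts in Sham and 67.4% in FT, whereas they took between 20.7% and 35.1% in the other 6 libraries. The most abundant transcript of pair 3, which had no gene name in the tables used here, held 29.5% of counts in Sham and 27.2% in FT. Accordingly, the scaling factors by trimmed mean of M-values (TMM) were 0.48 and 0.46 in pair 3 and between 1.09 and 1.55 elsewhere. The raw reads of the Sham library of replicate 1 are labelled as corrupted, although its count file is complete, with 11750132 reads. The serial numbers of the count files place replicates 1 and 3 in one range and replicates 4 and 5 in another.

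**Figure D1:**
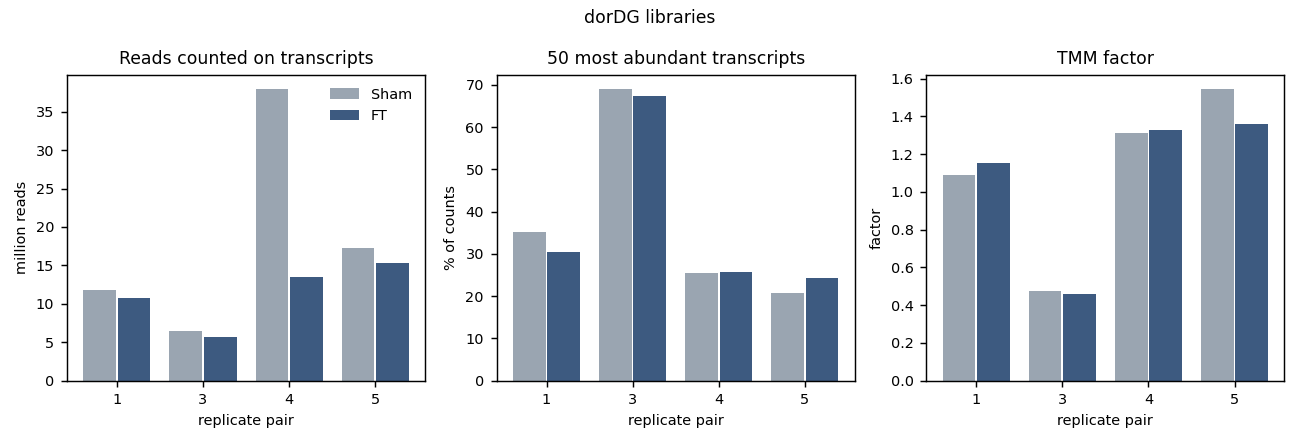
Reads counted on transcripts, percent of counts in the 50 most abundant transcripts, and TMM scaling factor, for the Sham (grey) and FT (blue) library of each replicate pair; each bar is 1 library. Both libraries of pair 3 stand apart, with 69.0% and 67.4% of counts in 50 transcripts, and the Sham library of pair 4 is the deepest at 37950261 reads.

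To what extent did fluoxetine alter the dorDG transcriptome? With edgeR's quasi-likelihood test and the replicate number as a block, 0 of 13142 transcripts (0.0%) passed the threshold used throughout, which was a log2FC of at least 0.32 in size together with a p of 0.1 or less after adjustment by the Benjamini-Hochberg method. The smallest adjusted p was 0.105. There were 1767 transcripts (13.4%) with an unadjusted p under 0.05, of which 707 were higher (5.38%) and 1060 lower (8.07%) in FT. DESeq2, with the same block, called 296 of 12509 transcripts (2.37%) as differentially expressed genes (DEGs), 97 higher (0.775%) and 199 lower (1.59%). The fits also differed in scaling and in the filter on low counts, and edgeR without that filter called 606 transcripts. A DEG below is a transcript called by DESeq2, since edgeR with the filter called 0. Of the 292 DESeq2 DEGs that edgeR also tested, 232 had the same direction in all 4 pairs, beside 2517 of 13142 transcripts overall (19.2%), 9.93% higher and 9.22% lower. The DEGs were chosen on these same 4 pairs, which favours a shared direction, so that this comparison is no test.

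The 4 pairs did not contribute equally. The within-pair log2 ratios of FT to Sham were correlated across 13142 transcripts with r = 0.50 between pairs 4 and 5, and with r = 0.09 between pairs 1 and 3. Pairs 1 and 5 had r = 0.26, and the remaining combinations lay between -0.05 and 0.07. These correlations are descriptions across transcripts, which are not independent, and pairs 4 and 5 also share a range of library serial numbers. Leaving out a pair changed the DESeq2 count from 296 to 411 without pair 1, 723 without pair 3, 49 without pair 4 and 18 without pair 5. The edgeR count became 83 without pair 1, 319 without pair 3, and 0 without pair 4 or pair 5. With pairs 4 and 5 alone edgeR called 2013 transcripts (917 higher and 1096 lower), and with pairs 1 and 3 alone it called 0. Of the 296 DEGs, DESeq2 called 84.1% also with pairs 4 and 5 alone, but 9 with pairs 1 and 3 alone, 272 without pair 3, 171 without pair 1, 35 without pair 4 and 16 without pair 5. Single genes varied in this: the log2FC of Angptl6 was 0.67 in pairs 1 and 3 alone and 2.61 in pairs 4 and 5 alone, whereas the log2FC of Sypl1 was -1.22 and -1.32.

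**Figure D2:**
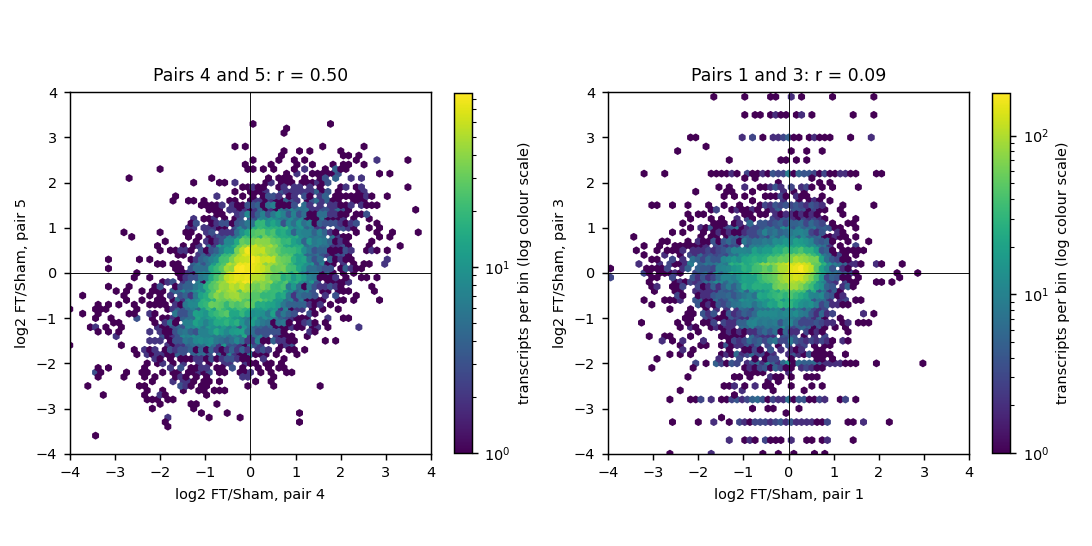
Within-pair log2 ratio of FT to Sham for 13142 transcripts, pair 5 against pair 4 (left) and pair 3 against pair 1 (right); the colour of each hexagon gives the number of transcripts on a log scale. The cloud is tilted for pairs 4 and 5 (r = 0.50) and nearly upright for pairs 1 and 3 (r = 0.09).

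Gene names could be given to 1815 of the transcripts tested. These names come from a list of transcripts that the study had called in more than 1 region, so that named transcripts are enriched in small p values to begin with: 42.9% of them had an unadjusted p under 0.05 in dorDG (22.8% higher, 20.1% lower), and DESeq2 called 11.4% (4.58% higher, 6.84% lower). The direction was the same in all 4 pairs for 33.3% of named transcripts (20.1% higher, 13.2% lower). The counts of named gene lists below are to be read beside these shares. Each list gives values only for genes with such a name, so that it does not describe a whole class of genes. The edgeR test gave its 2 smallest adjusted p values, both 0.105, to transcripts without a name. ENSRNOT00000071364 had 10.7, 11.5, 30.8 and 39.3 CPM in the Sham libraries of pairs 1, 3, 4 and 5, and 2.26, 5.41, 9.47 and 9.40 CPM in FT. ENSRNOT00000071687 had 22.0, 12.5, 5.83 and 4.58 CPM in Sham and 3.47, 4.63, 0.39 and 0.72 CPM in FT. Both were lower in FT in all 4 pairs.

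Of the 17 genes listed for serotonin and monoamine signalling, Htr1a alone had a name in these tables. Th, the rate-limiting enzyme of catecholamine synthesis, was not on this list and had log2FC 1.24 (SE 0.50, edgeR adjusted p = 0.321) on at most 28 reads a library. Htr1a, the inhibitory serotonin receptor, had 7.34, 18.7, 3.17 and 11.0 CPM in the Sham libraries of pairs 1, 3, 4 and 5, and 0.81, 14.3, 0.56 and 0.48 CPM in FT. It was lower in FT in 4 of 4 pairs, by -3.03, -0.38, -2.29 and -4.24 on the log2 scale. The groups overlapped because the FT library of pair 3 lay above 3 of the 4 Sham libraries. DESeq2 called it (adjusted p = 0.00098), while edgeR gave log2FC -2.56 (SE 0.56, adjusted p = 0.221). Without pair 5 neither tool called it.

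**Figure D3:**
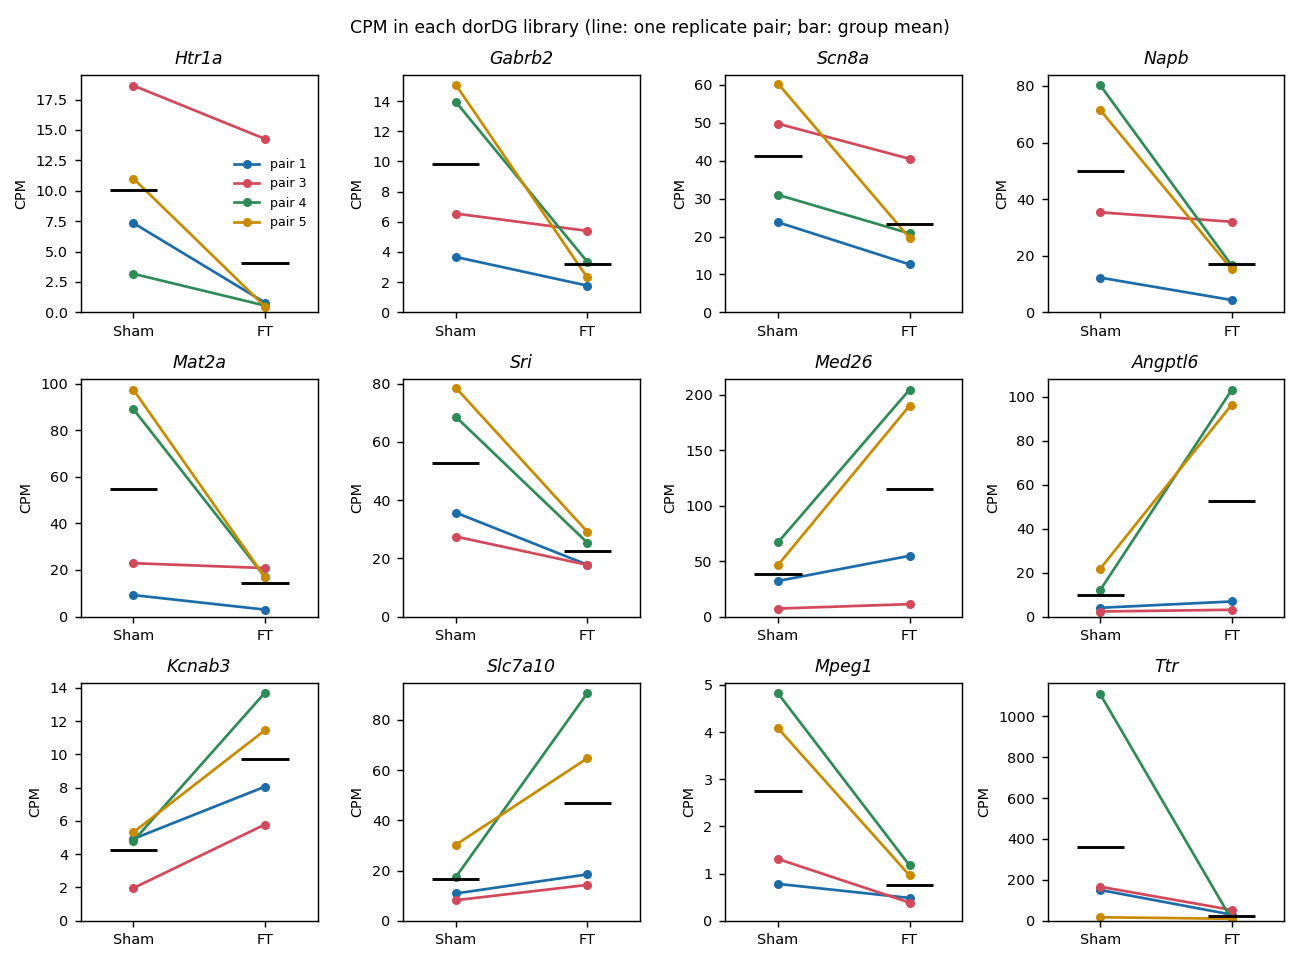
CPM (TMM-scaled, linear axes from 0) of 12 genes in each dorDG library, with a coloured line joining the Sham and FT library of a replicate pair and a black bar at the mean of each group of 4. Each of the 12 genes had 1 direction in all 4 pairs, beside 19.2% of all transcripts tested. Sri, Mat2a, Napb, Med26, Angptl6, Kcnab3 and Slc7a10 were selected by a rule that required this, so that the agreement is no test.

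Which named genes were lower in FT? The 12 with the smallest p among those lower in all 4 pairs were all DESeq2 DEGs, and in edgeR their adjusted p lay between 0.18 and 0.183. Sri encodes sorcin, a calcium-binding protein that acts on ryanodine receptors. It had 35.7, 27.5, 68.6 and 78.6 CPM in Sham and 17.8, 17.7, 25.4 and 29.2 CPM in FT (log2FC -1.16, SE 0.20, DESeq2 adjusted p = 0.000502). The lowest Sham value lay just under the highest FT value, so that the groups overlapped by 1 library on each side. Ppp2r2c, a brain regulatory subunit of protein phosphatase 2A, had log2FC -1.61 (SE 0.31), and Rasgrp1, a calcium- and diacylglycerol-activated Ras exchange factor, had log2FC -1.04 (SE 0.21).

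Mat2a makes S-adenosylmethionine, the methyl donor of cells. Its Sham libraries had 9.22, 22.9, 89.0 and 97.4 CPM and its FT libraries 2.98, 20.8, 17.0 and 16.8 CPM (log2FC -1.78, SE 0.35, DESeq2 adjusted p = 0.00181). The difference was large in pairs 1, 4 and 5 and small in pair 3. Jmjd8, a JmjC-domain protein of the endoplasmic reticulum, had the smallest p of the 12, with 6.09, 21.6, 13.03 and 22.9 CPM in Sham and 1.69, 11.6, 3.75 and 6.93 CPM in FT (log2FC -1.58, SE 0.25, DESeq2 adjusted p = 2.87e-05). It was lower in every pair, including pair 3. Napb, described with the synaptic vesicle genes, was also among the 12. The other genes of this group were the zinc finger gene Zfp483, the nucleotide sugar transporter family member Slc35a5, Sypl1, a synaptophysin-like vesicle membrane protein, Tmem18, a nuclear envelope protein, and the membrane proteins Tmem255a and Smim17, with log2FC between -1.95 and -1.251. In Zfp483 and Smim17 the highest FT library lay below the lowest Sham library, beside 0.502% of all transcripts and 0.661% of named ones.

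Similarly, the 12 named genes with the smallest p among those higher in all 4 pairs were all DESeq2 DEGs, with edgeR adjusted p between 0.18 and 0.234. Med26, a subunit of the Mediator complex that links transcription factors to RNA polymerase, had 32.1, 7.20, 66.8 and 46.4 CPM in Sham and 54.7, 11.2, 204 and 190 CPM in FT (log2FC 1.34, SE 0.25, DESeq2 adjusted p = 0.00192). Angptl6, a secreted angiopoietin-like factor, had 3.98, 2.29, 12.1 and 21.8 CPM in Sham and 6.85, 3.08, 103 and 96.3 CPM in FT (log2FC 1.94, SE 0.39, DESeq2 adjusted p = 0.00497). In both genes the FT libraries of pairs 4 and 5 were far above every other library, and pair 3 was low in both groups.

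Acot2, a mitochondrial acyl-CoA thioesterase, had log2FC 1.44 (SE 0.29). Gne, the rate-limiting enzyme of sialic acid synthesis, had log2FC 0.84 (SE 0.19), and Fdx1l, a mitochondrial ferredoxin of iron-sulphur cluster assembly, had log2FC 1.26 (SE 0.30). Slc7a10, the astrocyte and neuronal transporter of glycine and D-serine, had 10.9, 8.18, 17.3 and 30.2 CPM in Sham and 18.5, 14.3, 90.6 and 64.7 CPM in FT (log2FC 1.31, SE 0.28, DESeq2 adjusted p = 0.0127). The remaining genes were the Rab-like GTPase Rabl3, the GTPase-activating protein Arhgap12, the zinc finger gene Zfp280b, the locus RGD1311345, and Gapdh-ps1, whose reads cannot be told apart with certainty from those of near-identical Gapdh copies. Kcnab3, described with the ion channels, was the 1 gene of these 12 in which every FT library lay above every Sham library, beside 0.54% of all transcripts and 0.992% of named ones.

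Ion channel genes with a name were mostly lower in FT. All 19 listed had a name, so that the list covers only channel genes already called by the study. Of these 19, 18 were tested and 15 had a negative log2FC. The median was -0.60, beside -0.01 over all transcripts tested and 0.18 over named transcripts. At an unadjusted p under 0.05 in edgeR 9 were lower and 2 higher, and DESeq2 called 6 lower and 1 higher. The lower DEGs included the T-type calcium channels Cacna1h and Cacna1i, the sodium channel Scn8a with its beta subunit Scn2b, the potassium channel Kcna2 and the ryanodine receptor Ryr1.

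Scn8a, the sodium channel of the axon initial segment, had 23.8, 49.7, 31.0 and 60.3 CPM in Sham and 12.7, 40.5, 20.8 and 19.6 CPM in FT (log2FC -0.86, SE 0.23, edgeR adjusted p = 0.238, DESeq2 adjusted p = 0.0856). All 4 pairs were lower in FT, with overlapping groups. Ryr1, a calcium release channel of the endoplasmic reticulum, had 19.6, 24.2, 6.10 and 21.7 CPM in Sham and 6.69, 6.17, 5.37 and 4.38 CPM in FT (log2FC -1.48, SE 0.34, DESeq2 adjusted p = 0.0159). The Sham library of pair 4 was low and lay among the FT libraries. Cacna1i had log2FC -2.05 (SE 0.52), on low values of at most 8.84 CPM. Conversely, Kcnab3, a beta subunit of voltage-gated potassium channels, had 4.92, 1.96, 4.80 and 5.32 CPM in Sham and 8.06, 5.78, 13.7 and 11.5 CPM in FT (log2FC 1.18, SE 0.26, edgeR adjusted p = 0.221, DESeq2 adjusted p = 0.022). Without pair 4 DESeq2 called 1 channel gene lower and none higher, and without pair 5 it called 0.

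Counted by gene, the list of synaptic vesicles and transmitter release followed the same direction. This list, too, held only genes with a name. All 20 were tested, 15 had a negative log2FC, and the median was -0.48. In edgeR 10 were lower and 2 higher at an unadjusted p under 0.05, and DESeq2 called 6 lower and 1 higher. Napb, the beta-SNAP protein that helps to disassemble SNARE complexes after fusion, had 12.3, 35.3, 80.2 and 71.5 CPM in Sham and 4.35, 32.0, 16.6 and 15.2 CPM in FT (log2FC -1.60, SE 0.33, edgeR adjusted p = 0.183, DESeq2 adjusted p = 0.00378). Pair 3 differed little, and all 4 pairs were lower in FT. Amph, an endocytic adaptor, had log2FC -1.53 (SE 0.37), and Pacsin1, which bends membranes during vesicle recycling, had log2FC -1.38 (SE 0.33).

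Cplx2, a complexin that clamps SNARE-driven fusion, had 364, 1344, 46.7 and 38.2 CPM in Sham and 106, 1376, 12.9 and 15.0 CPM in FT (log2FC -1.247, SE 0.32, DESeq2 adjusted p = 0.0222). Its level was far higher in pair 3 than in pairs 4 and 5, and pair 3 was the only pair in which FT was not lower. The 1 member called higher was Syp, synaptophysin, with log2FC 0.68 (SE 0.25, DESeq2 adjusted p = 0.067). The whole list summed to 3787, 5834, 2521 and 2449 CPM in Sham and 4138, 6474, 2863 and 2835 CPM in FT. That sum was higher in FT in each pair, with Syp as the most abundant gene. Without pair 3 DESeq2 called 9 lower, without pair 4 it called 1, and without pair 5 it called 0. In pair 3 the median log2 ratio of the list was 0.14, against -0.69, -0.77 and -0.99 in pairs 1, 4 and 5.

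Receptors for GABA and glutamate were tested for 12 of 25 listed genes, and 9 had a negative log2FC (median -0.39). In edgeR 4 were lower and 0 higher at an unadjusted p under 0.05, all of them subunits of the GABA-A receptor, the main inhibitory ion channel of the forebrain: Gabrb2, Gabrb1, Gabrg1 and Gabra3. Gabrb2 was the 1 DESeq2 DEG, with 3.67, 6.54, 14.0 and 15.1 CPM in Sham and 1.77, 5.40, 3.36 and 2.31 CPM in FT (log2FC -1.68, SE 0.38, edgeR adjusted p = 0.222, DESeq2 adjusted p = 0.0222). It was lower in 4 of 4 pairs. Without pair 4 or pair 5 the 4 lower members became 1 and DESeq2 called 0. Gabrb1 had 44.0, 36.0, 39.0 and 53.8 CPM in Sham and 33.0, 34.3, 20.4 and 28.5 CPM in FT, groups that did not overlap, with log2FC -0.60 (SE 0.20, edgeR adjusted p = 0.272). Gabrd, an extrasynaptic subunit abundant in granule neurons, had log2FC -0.16 (SE 0.20, edgeR adjusted p = 0.765).

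**Figure D4:**
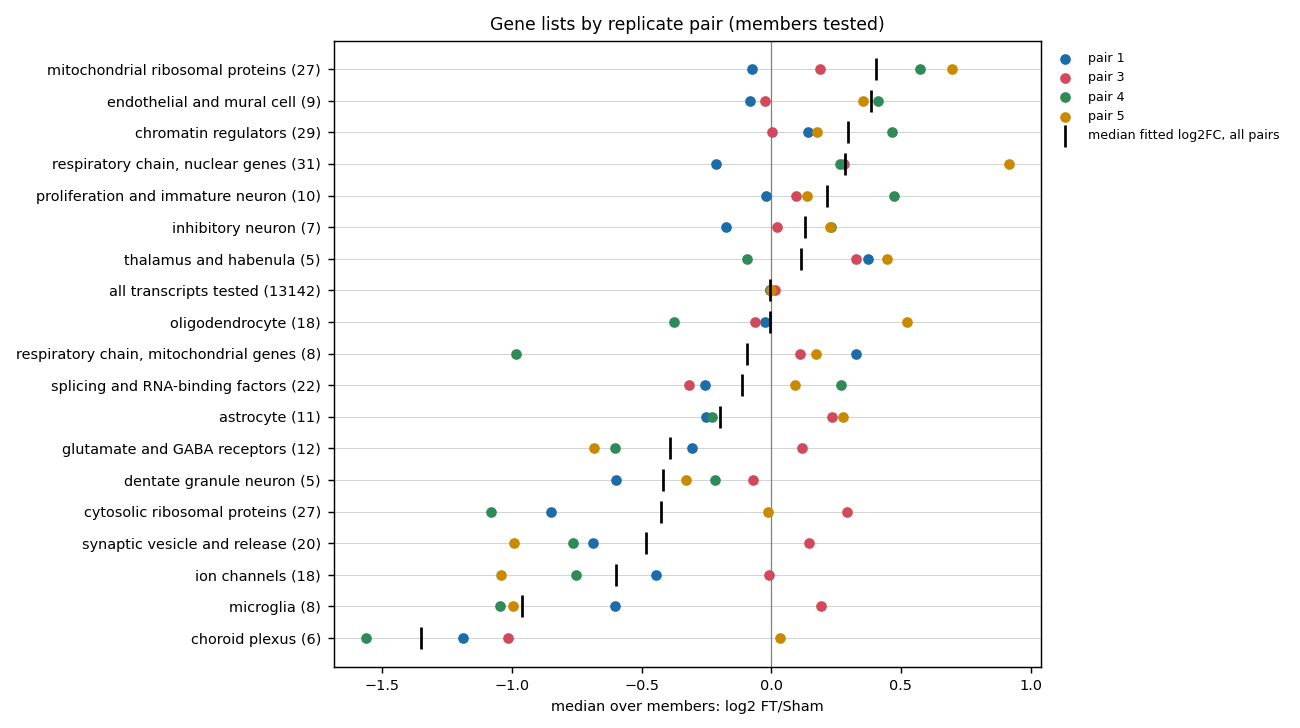
Median log2 ratio of FT to Sham over the members of each gene list, by replicate pair (coloured points) and as the median log2FC of the fit to all 4 pairs (black ticks), with the number of members tested in brackets. Ion channels (median -0.60) and synaptic vesicle genes (-0.48) lie left of 0 in pairs 1, 4 and 5 and near 0 in pair 3, while mitochondrial ribosomal proteins (0.40) lie right of 0 in pairs 3, 4 and 5.

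For the respiratory chain, 25 of 31 transcripts of nuclear genes had a positive log2FC and the median was 0.28, near the 0.18 of named transcripts. In this list and the ribosomal ones a few names, such as Ndufb4, stood for more than 1 transcript. At an unadjusted p under 0.05 3 were higher and 1 lower, a smaller share than among named transcripts, and DESeq2 called 0. Without pair 1 there were 11 higher and DESeq2 called 6 higher, and without pair 5 there were 0 and the median was 0.11. Atp5j2, a subunit of ATP synthase, had 584, 589, 276 and 163 CPM in Sham and 633, 790, 407 and 481 CPM in FT (log2FC 0.66, SE 0.26, edgeR adjusted p = 0.318). Cox5a of cytochrome c oxidase had log2FC 0.55 (SE 0.23), and Uqcrc2, a core protein of complex III, had log2FC -0.46 (SE 0.20). The median ratio of the list was -0.21 in pair 1 and 0.28, 0.27 and 0.92 in pairs 3, 4 and 5. The 8 named genes encoded by the mitochondrial genome had a median of -0.09 with 0 called by either tool and 0 at an unadjusted p under 0.05. Their median was 0.21 without pair 4 and -0.29 without pair 1.

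For mitochondrial ribosomal proteins, 22 of 27 transcripts had a positive log2FC (median 0.40), with 10 higher and 1 lower at an unadjusted p under 0.05. The 10 became 1 without pair 4 or without pair 5. DESeq2 called Mrpl51 higher and Mrpl2 lower, 4 higher without pair 1, 3 higher and 1 lower without pair 3, and 0 without pair 4 or pair 5. Mrpl51, of the large subunit, had 48.7, 15.4, 313 and 217 CPM in Sham and 47.1, 20.4, 1118 and 1005 CPM in FT (log2FC 1.16, SE 0.37, edgeR adjusted p = 0.268, DESeq2 adjusted p = 0.0939). Its difference lay in pairs 4 and 5, whose levels were far above those of pairs 1 and 3 in both groups. In contrast, 21 of 27 transcripts of cytosolic ribosomal proteins had a negative log2FC (median -0.43). Their median was -0.25 without pair 1, -0.17 without pair 4 and -0.69 without pair 3. At an unadjusted p under 0.05 3 were lower and 2 higher, and Rpl14 was the 1 DESeq2 DEG (log2FC -0.995, SE 0.28, adjusted p = 0.0672). Without pair 3 the count of lower cytosolic members became 13 in edgeR and DESeq2 called 6 lower and 1 higher, while without pair 1 it called 2 higher and 0 lower and without pair 4 or pair 5 it called 0. Ribosomal protein genes have many processed copies, so that the reads of single members are uncertain.

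Chromatin regulators were divided. Of 29 tested, 11 were higher and 7 lower at an unadjusted p under 0.05, the median was 0.29, and DESeq2 called 2 in each direction. Without pair 4 the median was 0.12, with 3 higher and 5 lower at that p. Without pair 5 it was 0.22, with 5 higher and 3 lower. Without pair 1 DESeq2 called 4 higher and 1 lower, without pair 3 it called 5 higher and 7 lower, and without pair 4 or pair 5 it called 0. Trim28, a co-repressor that silences retroelements, had 108, 88.7, 134 and 135 CPM in Sham and 147, 121, 417 and 327 CPM in FT (log2FC 0.96, SE 0.24, edgeR adjusted p = 0.238, DESeq2 adjusted p = 0.0361). It was higher in 4 of 4 pairs. Hdac8, a class I histone deacetylase, had 16.9, 11.5, 18.7 and 19.5 CPM in Sham and 6.21, 10.4, 8.11 and 9.77 CPM in FT (log2FC -1.003, SE 0.25, edgeR adjusted p = 0.237, DESeq2 adjusted p = 0.0495). Every FT library of Hdac8 lay below every Sham library. Jmjd6, a hydroxylase of the Jumonji family, was called higher (log2FC 1.01, SE 0.28) and Cdyl2, a chromodomain protein, was called lower (log2FC -1.39, SE 0.39) by DESeq2.

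Splicing and RNA-binding factors were balanced in direction, with 11 of 22 lower and a median of -0.11, but 7 were lower and 1 higher at an unadjusted p under 0.05, and DESeq2 called 4, all lower. Without pair 1 it called 3 higher and 1 lower, without pair 3 it called 3 higher and 4 lower, and without pair 4 or pair 5 it called 0. The median was -0.28 without pair 4 and -0.23 without pair 5. U2af2, which binds the polypyrimidine tract at 3′ splice sites, had 4.77, 16.4, 0.98 and 1.20 CPM in Sham and 0.97, 6.17, 0.39 and 0.58 CPM in FT (log2FC -1.53, SE 0.35, DESeq2 adjusted p = 0.032). It was lower in all 4 pairs on low values in pairs 4 and 5. The other lower DEGs were Celf4 and Celf6, RNA-binding proteins of neurons, and Snrpd1, a core spliceosomal Sm protein.

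Genes of cell division and immature neurons were considered because granule neurons are born in adult life. Of 19 listed, 10 were tested (median 0.22), and DESeq2 called Ccne1 higher and Ccnd1 and Tubb3 lower. Without pair 1 it called 1 higher and 0 lower, and without pair 4 or pair 5 it called 0. Ccnd1, cyclin D1, had 29.2, 36.3, 15.3 and 11.7 CPM in Sham and 19.8, 26.2, 5.71 and 6.26 CPM in FT (log2FC -0.84, SE 0.22, edgeR adjusted p = 0.238, DESeq2 adjusted p = 0.0743). Ccne1, cyclin E1, had 17.5, 16.4, 23.3 and 25.0 CPM in Sham and 30.2, 20.8, 48.3 and 36.1 CPM in FT (log2FC 0.70, SE 0.19, edgeR adjusted p = 0.243, DESeq2 adjusted p = 0.0847). Both cyclins kept 1 direction in all 4 pairs. Tubb3, a neuronal tubulin, had log2FC -1.05 (SE 0.31), whereas the replication clamp Pcna had log2FC 0.17 (SE 0.18, edgeR adjusted p = 0.725). Of the immediate early genes only Fos had a name, with log2FC 0.43 (SE 0.25, edgeR adjusted p = 0.481).

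The circadian output list held 3 genes with a name. Dbp, a PAR-domain transcription factor driven by the clock, had 71.1, 47.5, 40.0 and 33.5 CPM in Sham and 86.6, 60.9, 91.9 and 111 CPM in FT (log2FC 0.91, SE 0.25, edgeR adjusted p = 0.244, DESeq2 adjusted p = 0.0873). Cirbp, the cold-inducible RNA-binding protein, had 145, 94.2, 94.7 and 110 CPM in Sham and 183, 90.2, 658 and 625 CPM in FT (log2FC 1.41, SE 0.47, DESeq2 adjusted p = 0.082). Dbp was higher in 4 of 4 pairs and Cirbp in 3 of 4, with pair 3 flat. Without pair 4 or pair 5 DESeq2 called neither. Tef, a PAR-domain relative of Dbp, had log2FC 0.11 (SE 0.22, edgeR adjusted p = 0.882), with FT higher in pairs 1 and 3 and lower in pairs 4 and 5.

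The 250 bases upstream of the start of these 3 genes are shown to set the clock-related motif beside the values, from RefSeq with build GRCr8, 5′ to 3′ on the strand of the gene. Capitals mark the CCAAT box (CCAAT, or ATTGG on the other strand) and the E-box CACGTG, the site of the clock factors, which reads the same on both strands. The windows are chr1:105312006-105312255 (+) for Dbp, chr7:10189476-10189725 (-) for Cirbp and chr7:115206577-115206826 (+) for Tef.
Dbp: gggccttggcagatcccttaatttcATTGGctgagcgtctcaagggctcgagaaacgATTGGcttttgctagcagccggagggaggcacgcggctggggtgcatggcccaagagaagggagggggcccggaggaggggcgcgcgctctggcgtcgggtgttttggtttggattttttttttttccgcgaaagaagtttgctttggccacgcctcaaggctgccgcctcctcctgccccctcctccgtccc
Cirbp: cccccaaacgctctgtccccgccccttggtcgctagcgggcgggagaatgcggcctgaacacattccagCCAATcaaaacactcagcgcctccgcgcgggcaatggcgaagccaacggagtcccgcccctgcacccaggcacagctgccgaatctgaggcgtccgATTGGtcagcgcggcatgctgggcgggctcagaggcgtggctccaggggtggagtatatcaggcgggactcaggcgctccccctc
Tef: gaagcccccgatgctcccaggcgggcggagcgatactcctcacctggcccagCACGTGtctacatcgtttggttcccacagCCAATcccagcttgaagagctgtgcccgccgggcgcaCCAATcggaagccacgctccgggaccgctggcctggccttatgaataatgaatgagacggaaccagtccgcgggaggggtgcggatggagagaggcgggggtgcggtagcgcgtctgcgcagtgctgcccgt
Each window held 2 CCAAT boxes, a motif found in 34.0% of 33469 promoters of the same length. Within these 250 bases the E-box was present in Tef alone of the 3 genes, and in 5.59% of all promoters. Sites outside the window, such as further upstream or within the genes, were not searched. No binding data bear on these letters here.

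Markers of other cell types were read in the same fit. Microglia, the resident macrophages of the brain, had 8 markers tested of 17 listed, with a median log2FC of -0.96. In edgeR 5 were lower and 0 higher at an unadjusted p under 0.05, and DESeq2 called 1. The median was -0.48 without pair 4 and -0.28 without pair 5, with 2 lower in each case. Mpeg1, a macrophage perforin, had 0.78, 1.31, 4.82 and 4.08 CPM in Sham and 0.48, 0.39, 1.17 and 0.96 CPM in FT (log2FC -1.76, SE 0.39, edgeR adjusted p = 0.221, DESeq2 adjusted p = 0.0856). Cx3cr1, the fractalkine receptor, had 3.83, 1.64, 18.5 and 13.9 CPM in Sham and 1.37, 2.70, 7.27 and 5.77 CPM in FT (log2FC -1.13, SE 0.32, edgeR adjusted p = 0.244). Both were lower in pairs 1, 4 and 5, and Cx3cr1 was higher in pair 3. Selplg and Cyba were lower at an unadjusted p under 0.05 as well, and so was Lgmn. On the other hand, C1qa, Pld4 and Nrros had positive log2FC. The part of microglia in the other results was not tested. The list summed to 120, 120, 86.9 and 76.9 CPM in Sham and 116, 144, 47.5 and 51.2 CPM in FT, with Lgmn, a lysosomal protease, as its most abundant gene. Without pair 3 DESeq2 called 4 of the 8 markers lower, without pair 1, 4 or 5 it called 0.

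Choroid plexus, which lines the ventricles next to the hippocampus, had 6 of 12 markers tested with a median of -1.35, which became -0.63 without pair 4. Ttr had 150, 166, 1108 and 17.1 CPM in Sham and 29.8, 52.8, 5.26 and 9.72 CPM in FT (log2FC -2.63, SE 0.89, edgeR adjusted p = 0.273, DESeq2 adjusted p = 0.271). Each pair was lower in FT, and the Sham library of pair 4 was far above the rest. DESeq2 called Kcnj13, an apical potassium channel, and Car12, a carbonic anhydrase, both lower, but called 0 without pair 1 or pair 5. Mfrp had log2FC -1.12, whereas Car14 had 0.50 and Igfbp2 0.18, and in pair 5 the median log2 ratio of the 6 markers was 0.03. The 7 markers with a name summed to 186, 205, 1158 and 57.1 CPM in Sham and to 58.8, 78.3, 35.2 and 37.4 CPM in FT, of which Ttr was the most abundant. The sum was lower in FT in each pair, mostly through Ttr in pairs 1, 3 and 4, and the part of choroid plexus in the other results was not tested.

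Astrocyte markers were mixed, with 4 of 11 higher and a median of -0.20. The median was 0.09 without pair 1 and -0.36 without pair 3. Slc7a10 was the 1 DESeq2 DEG, with 2 higher and 2 lower called without pair 3 and 0 without pair 4 or pair 5. In edgeR 2 were higher and 3 lower at an unadjusted p under 0.05, among them Kcnj10 and the GABA transporter Slc6a11, both lower. The summed level was between 552 and 1776 CPM in 6 libraries and reached 12360 CPM in Sham and 17349 CPM in FT of pair 3, nearly all of it Apoe. Oligodendrocyte markers had a median of -0.01 over 18 genes, with Myrf and Sox10 among the members higher at an unadjusted p under 0.05 and 0 called. Their median was 0.16 without pair 4 and -0.20 without pair 5. Endothelial and mural markers had a median of 0.38 over 9 genes, with 2 in each direction at that p and 0 called. This median was 0.23 without pair 4 and 0.11 without pair 5. The 2 haemoglobin genes had a median of -0.30, which was 0.009 without pair 4, and neither had an unadjusted p under 0.05.

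For neurons, 4 of the 5 granule neuron markers had a negative log2FC (median -0.42), and Rfx3 was the 1 member with an unadjusted p under 0.05 (log2FC -0.68, SE 0.24, edgeR adjusted p = 0.28). Without pair 5 the median was -0.21 and 0 members had such a p. Slc30a3 had log2FC 0.08 (SE 0.21). Inhibitory neuron markers had a median of 0.13 over 7 genes, with Cck higher (log2FC 0.89, SE 0.35) and Gad2, an enzyme of GABA synthesis, lower (log2FC -0.54, SE 0.21) at an unadjusted p under 0.05. Without pair 4 this median was -0.06 and 0 members had such a p. Markers of neighbouring tissue were few. Wfs1, a marker of CA1 pyramidal neurons, had log2FC 0.73 (SE 0.31, edgeR adjusted p = 0.345), and thalamus and habenula markers had a median of 0.12 over 5 genes, with Slc17a6 at log2FC 0.70 (SE 0.22, edgeR adjusted p = 0.266). None of these lists held a DESeq2 DEG, although 1 inhibitory neuron marker was called higher without pair 1.

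The study named 7 genes as altered in many of its regions, a choice made on libraries that include these. In dorDG, DESeq2 called Otub1 and Trim28 higher and Mat2a, Napb and Cds2 lower, whereas Pdrg1 and Commd4 did not pass (DESeq2 adjusted p = 0.152 and 0.351). Of the 7, DESeq2 called 1 without pair 4 and 0 without pair 5. Otub1, a deubiquitinase, had 588, 353, 427 and 630 CPM in Sham and 1031, 391, 1835 and 1719 CPM in FT (log2FC 1.13, SE 0.32, edgeR adjusted p = 0.244, DESeq2 adjusted p = 0.0361). It was higher in 4 of 4 pairs. Cds2, an enzyme of phosphatidylinositol synthesis, had 1.88, 58.2, 4.04 and 3.82 CPM in Sham and 0.40, 61.3, 0.78 and 0.38 CPM in FT (log2FC -1.69, SE 0.48, DESeq2 adjusted p = 0.0222), with pair 3 at an entirely different level and without a decrease.

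Did dorDG respond differently from venDG? Both regions have libraries of the same 4 replicate numbers, and the difference between their log2 fold changes was tested in all 16 libraries. In edgeR 0 of 14265 transcripts (0.0%) passed, with a smallest adjusted p of 0.223, 818 (5.73%) had an unadjusted p under 0.05 (2.64% higher and 3.09% lower in dorDG, and 4.04% and 6.49% among named transcripts), and DESeq2 called 4 of 23110 (0.0173%). In venDG alone edgeR likewise called 0 of 13384 transcripts (0.0%) with 1591 at an unadjusted p under 0.05 (11.9%), and DESeq2 called 243 (2.95%). An absence of calls does not show that the regions acted alike, and the standard errors of these differences were between 0.21 and 1.08 on the log2 scale among the named genes.

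The named gene with the smallest p for a difference was Slc17a6, which had log2FC 0.70 (SE 0.22) in dorDG and -0.73 (SE 0.29) in venDG, a difference of 1.47 (SE 0.24, edgeR adjusted p = 0.223). Hmg1l1 had 1.2501 (SE 0.42) in dorDG and -0.18 (SE 0.51) in venDG. Slc17a6 and Hmg1l1 were among the 4 transcripts that DESeq2 called (adjusted p = 0.00517 for each). Of the 5 thalamus and habenula markers, 3 were lower and 1 higher in venDG at an unadjusted p under 0.05 (median -0.50), among them Rora at log2FC -1.13 (SE 0.26, edgeR adjusted p = 0.292), and their part in the difference was not tested. Arhgap12 had 0.96 (SE 0.20) and -0.12 (SE 0.33). Mpeg1 had -1.76 (SE 0.39) in dorDG and -0.16 (SE 0.42) in venDG (difference -1.53, SE 0.42, edgeR adjusted p = 0.797). Over the microglia list the venDG median was -0.07, and 4 of the 8 members had an unadjusted p under 0.05 for a more negative value in dorDG. Likewise 7 of the 8 mitochondrially encoded genes had such a p in the other direction, with a venDG median of -0.76. For Htr1a the venDG log2FC was -1.08 (SE 0.52), a difference of -1.48 (SE 0.50, edgeR adjusted p = 0.797). Ion channels had a median of -0.60 in dorDG and -0.56 in venDG, synaptic vesicle genes -0.48 and -0.56, and mitochondrial ribosomal proteins 0.40 and 0.59. The medians lay further apart for cytosolic ribosomal proteins, at -0.43 and -0.06, and for choroid plexus markers, at -1.35 and -0.66. Without pair 4 these dorDG medians were -0.17 and -0.63. Differences between list medians were not tested. The members have names because the study called them in more than 1 region, so that similar medians are no test either.

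**Figure D5:**
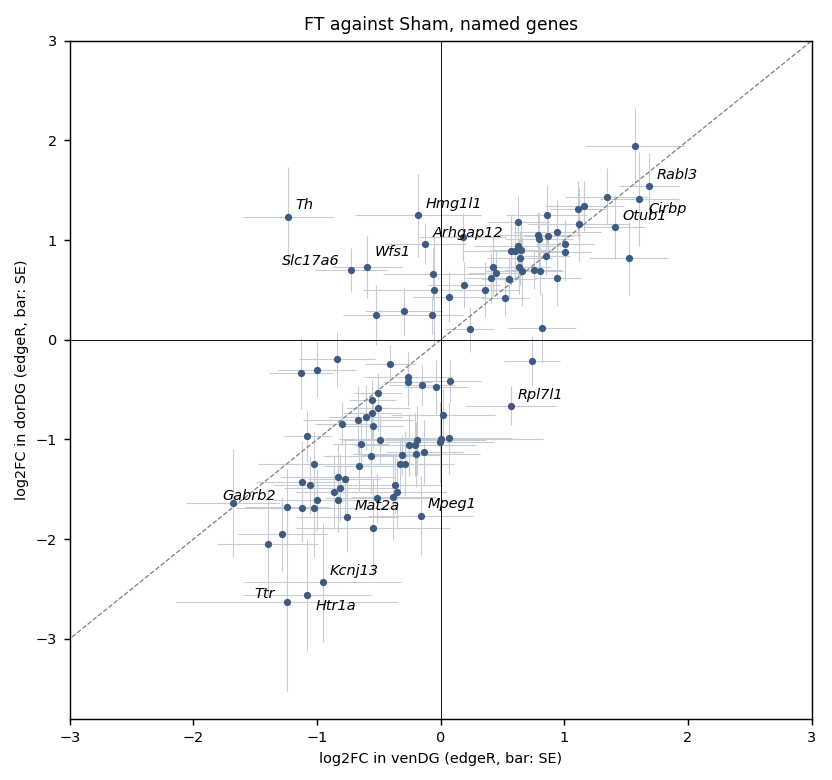
Log2FC of FT against Sham in dorDG (vertical) and in venDG (horizontal) for the named genes, each point a gene with its standard errors; the dashed line marks equal values. Most points share a sign in both regions, while Th, Slc17a6, Wfs1 and Arhgap12 are positive in dorDG and negative in venDG, with no difference passing the edgeR threshold.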

How the data were processed

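Bulk RNA-seq libraries of dorDG punches were compared as deposited. Per the labels and the study's methods, the authors made stranded total-RNA libraries (the labels name polyA RNA), aligned paired-end reads with STAR to rat build rn5 and counted reads per Ensembl transcript with HTSeq, so that the deposited values are raw counts. The HTSeq strand setting was not given in the sources used here, and antisense or overlapping genes may share reads. The 5 summary lines of each file were dropped. Transcripts were filtered with filterByExpr, scaled by TMM and tested with edgeR 4.0.16 (R 4.3.3), quasi-likelihood, with the replicate number as a block. DESeq2 1.42.0 with the same block was an alternative. CPM are TMM-scaled, and pair ratios used a prior count of 2. The label check used CPM of library totals.

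The replicate numbers are batches in the study's methods, where the Sham and FT samples of a number were processed in parallel. Deviations from the group means correlated within each number (r = 0.68, 0.83, 0.75 and 0.74), but Sham 5 correlated more with FT 4 (r = 0.80) and Sham 4 with FT 5 at r = 0.64, so that the correlations do not separate numbers 4 and 5. The pairing rests on the shared processing. With the replicate number as a block, p values measure how the difference between FT and Sham varied between pairs of pools, not the spread between pools.

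Named genes were up to 12 per direction by p with the same sign in 4 pairs, up to 4 members of each of 24 lists by p, Htr1a, the 7 genes the study named, and up to 5 per direction for dorDG against venDG. Other list members named were chosen after their values were seen. The members and lists were chosen with earlier results of these data known. The tests were checked on simulated data. Pandas 2.3.3 and numpy 2.4.6 were used for the summaries.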

Additional observations from a re-analysis of the deposited data

Results flagged for a closer look

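Single libraries stood apart from the other 3 of their group in 13 of 224 sets of 4 values examined, by Dixon's gap test at its 95% limit. Chance gives such a gap in about 1 in 20 groups. Of the FT libraries, that of pair 3 stood apart for Arhgap12 (42.4 CPM, others 69.8 to 71.2), Neurod1 (72.5 CPM, others 30.8 to 35.0), Epas1 (25.8 CPM, others 0.50 to 0.97), Htr1a (14.3 CPM, others 0.48 to 0.81), Cacna1i (6.17 CPM, others 0.16 to 0.34) and Cds2 (61.3 CPM, others 0.38 to 0.78). The same library had 67.4% of counts in its 50 most abundant transcripts, against 24.3% to 30.4% in the other FT libraries. The Sham library of pair 3 was likewise the highest Sham library for Neurod1, Epas1 (26.2 CPM), Htr1a, Cacna1i (8.84 CPM) and Cds2 (58.2 CPM), and the lowest for Arhgap12. For these genes the level of the whole pair differed. The FT library of pair 1 was low for Mat2a (2.98 CPM, others 16.8 to 20.8).

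Of the Sham libraries, that of pair 4 stood apart for Kcnj13 (11.99 CPM, others 0.94 to 1.31), Ryr1 (6.10 CPM, others 19.6 to 24.2) and Tubb3 (95.9 CPM, others 264.7 to 290.9). The Sham library of pair 3 was low for Kcnab3 (1.96 CPM, others 4.80 to 5.32), and that of pair 1 was low for Kcnj10 (0.55 CPM, others 3.48 to 4.58). Th, tyrosine hydroxylase, was higher in FT in all 4 dorDG pairs and lower in all 4 venDG pairs, and its log2FC differed by 2.53 between the regions (edgeR adjusted p = 0.628, DESeq2 adjusted p = 0.821). In dorDG it rested on few reads, with 22, 3, 13 and 5 in the Sham libraries of pairs 1, 3, 4 and 5 and 23, 4, 13 and 28 in FT.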

How the results depend on the processing

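Against 0 transcripts called by edgeR, DESeq2 called 296, version 4 quasi-likelihood estimates (chosen after seeing the data) 3, and a fit with no filter on low counts 606. Leaving out 1 pair gave 0 to 319 calls, and pairs 4 and 5 alone 2013. Without the replicate block edgeR called 0 with 142 at an unadjusted p under 0.05, and DESeq2 called 0. Alternatives added for DESeq2 after seeing the data gave 18 to 723 calls with 1 pair left out, 18 with pairs 1 and 3 alone and 1215 with pairs 4 and 5 alone. The count at an unadjusted p under 0.05 was 630 to 2119 with 1 pair left out. For dorDG against venDG, DESeq2 called 4, the fit without a filter 90, and fits with 1 pair left out 0 to 85. The cause of these differences was not tested. All 105 named genes kept their direction under DESeq2, no block, robust, legacy and version 4 estimates, RLE scaling, no filter, and without pair 3. With pairs 1 and 3 alone, the log2FC reversed for C1ql3 (0.015), Rora (0.38), Gng8 (-0.84), Vip (-0.042), Olig2 (-0.11), Hbb-b1 (0.093), Uqcrq (-0.064), MT-ATP8 (-0.84), MT-ND5 (0.050) and Commd4 (-0.059), and with pairs 4 and 5 alone for MT-ND6 (-0.29) and Tef (-0.26). With 1 pair left out, the range included both signs for Rora (-0.68 to 0.040), Gng8 (-0.27 to 0.54), Hbb-b1 (-0.35 to 0.12), MT-ND4L (-0.45 to 0.013), MT-ATP8 (-0.20 to 1.13), MT-ND6 (-0.053 to 0.60), MT-ND5 (-0.31 to 0.057) and Tef (-0.084 to 0.30). Depth ranged from 5664111 to 37950261 counts, and low genes in pair 3 are the least precise.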
